A study of Mus musculus with 7 samples.

Results

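The 35 immediate early genes examined here were read on 7 one-colour arrays of satellite cells, the resident stem cells of skeletal muscle. They are genes known for rapid induction by stimuli and by tissue dissociation, and their probes were those whose gene name on the array equals one of their symbols. All 35 were on the array, with 40 probes among 55681, and 34 of them were tested with the other features of the array. The cells came from male C57BL/6 mice. The geriatric group had 4 arrays, from mice aged 28, 28, 29 and 30 months, and the young group had 3 arrays, from mice aged 2, 2 and 3 months. Both groups were unchallenged, with no injury or agent named in the labels. Muscle was dissociated and cells were sorted for integrin α7 and CD34 and against CD31, CD45, CD11b and Sca1, and since few cells were sorted, the RNA of both groups went through whole-transcriptome amplification. Geriatric arrays 1 and 2 carried the same sample name and were averaged, which left 3 geriatric and 3 young samples. The titles call the samples biological replicates. How many mice gave each sample is not stated in the labels, so a p-value here reflects only how far these samples differ.

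Immediate early genes are transcribed within minutes of a stimulus from transcription factors that are already in the cell, without new protein synthesis. Growth factors, calcium, mechanical strain and stress reach them through the ERK, JNK and p38 kinases and through the factors SRF and CREB, and many of their products are transcription factors or inhibitors that end the response. In muscle, enzymatic dissociation and sorting are known to induce this set in satellite cells, so that sorted cells show it even when they are quiescent in the tissue.

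Signals of most of these genes were high in both age groups, and none of them passed the test for a difference between geriatric and young cells. Of the 34 tested genes, 32 were well above background on all 7 arrays and 27 lay above the 75th percentile of the array's probes on every array. That percentile was taken over all probes, dim ones included. Maff, whose mean lay close to it, was at the 62.0th percentile of the tested features by mean level. A log2 difference here is geriatric minus young, of signals scaled to each array's 75th percentile. With limma 0 of 34 passed an adjusted p of 0.05 over all features, where 0.0256% of the 27392 features did (0.011% higher and 0.0146% lower). At an unadjusted limma p under 0.05 there were 2 (5.88%), Klf2 and Ier3, against 7.25% of all features. The geriatric and young samples did not overlap for 2 genes (5.88%), Klf2 and Gadd45b, both higher in geriatric cells, while 12.8% of all features did not overlap (7.09% higher and 5.75% lower). By sign 23 were higher and 11 lower in geriatric cells, with a median log2 difference of 0.11, against -0.0044 over all features. Without young array 3 the split was 14 higher and 20 lower and the median was -0.04, and with scaling to the array median the split was 18 and 16. The median absolute difference was 0.227 for these genes and 0.235 for all features. In sorted cells, fewer cells with a transcript and less of it per cell cannot be told apart.

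**Figure D1:**
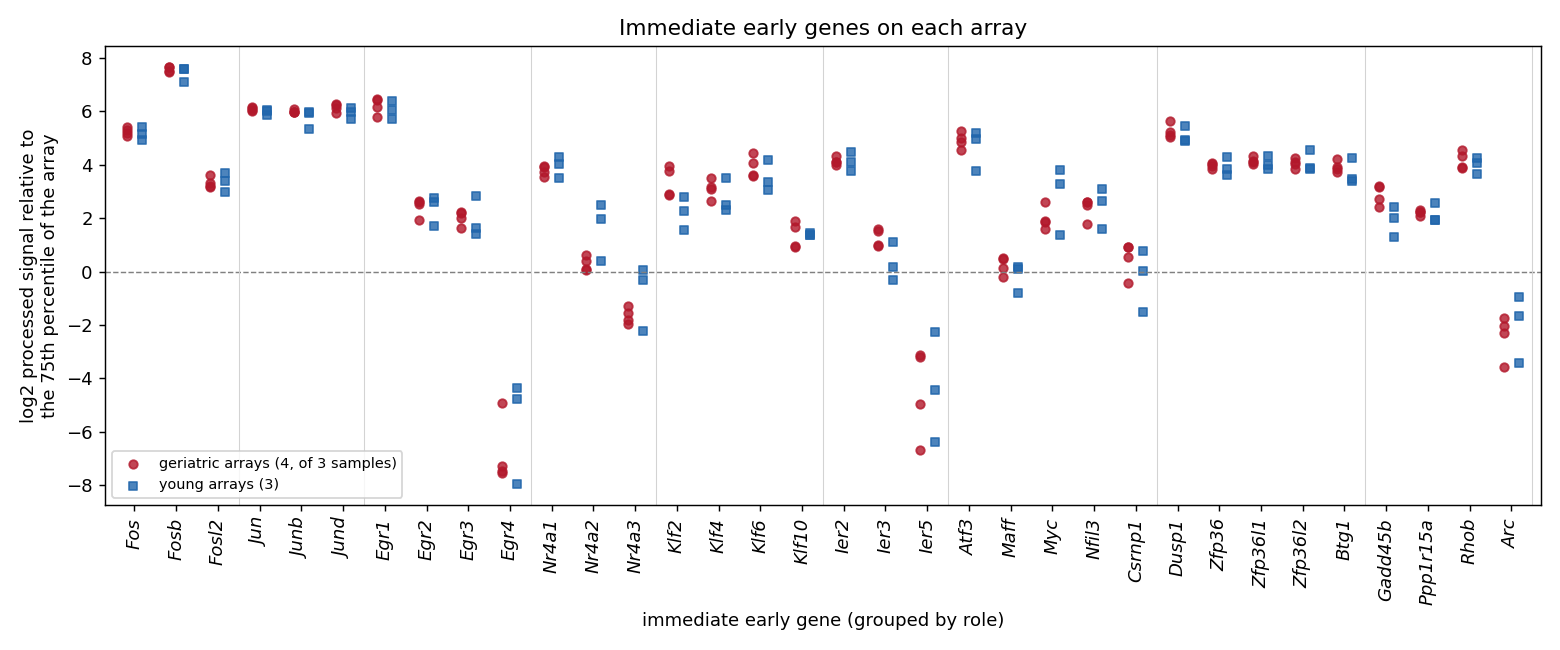
Log2 processed signal of the 34 tested immediate early genes relative to the array's 75th percentile (dashed line at 0), with 4 geriatric arrays as circles left of 3 young arrays as squares, and grey lines between roles. Signals of 27 genes lie above the line on all 7 arrays, and the age groups overlap for 32 of 34 genes once samples are averaged.

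The start regions of these genes were examined for the short motifs that CREB, AP-1 and SRF bind. RefSeq promoters of GRCm38.p6 matched 27 of the 35 genes, and the 250 bases before each annotated start were searched on both strands. Unmatched were Arc, Egr1, Egr3, Fosl1, Ier2, Klf10, Myc and Zfp36l2, and bases further upstream were not searched for any gene. The short core of the cyclic AMP response element, TGACG, was found in 17 of 27 (63.0%), against 19.8% of 27025 genes. The full element, TGACGTCA, which holds 2 overlapping cores, was in 3 of 27 (11.1%), namely Dusp1, Maff and Ppp1r15a, against 1.77% of all. The AP-1 motif TGANTCA was in 2 (7.41%), Csrnp1 and Zfp36l1, against 7.82% of all, and the CArG box of SRF in 2 (7.41%), Egr2 and Zfp36, against 1.62%. Where a gene has several annotated starts, a match before any of them was counted. A match is a run of letters and says nothing of binding in these cells. The sequences given are those of Fos and Dusp1, for the transcription factors and the feedback genes. Those of the 3 NR4A genes, whose means were lower in geriatric cells, and of the 2 genes whose samples did not overlap follow. A link between motifs and age differences was not tested. Capitals mark cores and the full element in bases before the start, 5′ to 3′ along the gene.
Fos (chr12:85473640-85473889, plus strand): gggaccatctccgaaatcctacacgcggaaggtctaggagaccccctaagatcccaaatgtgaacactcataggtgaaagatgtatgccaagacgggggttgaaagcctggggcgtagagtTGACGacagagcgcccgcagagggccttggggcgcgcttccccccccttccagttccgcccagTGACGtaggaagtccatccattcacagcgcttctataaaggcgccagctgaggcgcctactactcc
Dusp1 (chr17:26508473-26508722, minus strand): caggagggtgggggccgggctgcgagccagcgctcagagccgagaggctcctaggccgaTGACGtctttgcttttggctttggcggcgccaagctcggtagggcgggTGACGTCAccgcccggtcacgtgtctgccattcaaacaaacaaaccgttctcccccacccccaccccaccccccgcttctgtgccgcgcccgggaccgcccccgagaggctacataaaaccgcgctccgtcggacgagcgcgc
Nr4a1 (chr15:101266596-101266845, plus strand): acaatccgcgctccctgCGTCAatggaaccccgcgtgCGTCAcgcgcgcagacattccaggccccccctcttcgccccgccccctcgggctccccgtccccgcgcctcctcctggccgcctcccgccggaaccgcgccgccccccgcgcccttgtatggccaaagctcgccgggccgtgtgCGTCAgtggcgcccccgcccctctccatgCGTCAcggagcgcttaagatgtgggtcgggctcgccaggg
Nr4a2 (chr2:57124004-57124253, minus strand): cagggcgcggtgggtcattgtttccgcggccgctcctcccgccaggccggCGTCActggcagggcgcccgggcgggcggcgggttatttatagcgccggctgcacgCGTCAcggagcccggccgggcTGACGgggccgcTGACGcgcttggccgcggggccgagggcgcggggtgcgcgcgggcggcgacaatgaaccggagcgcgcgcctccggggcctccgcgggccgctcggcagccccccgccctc
Nr4a3 (chr4:48045055-48045304, plus strand): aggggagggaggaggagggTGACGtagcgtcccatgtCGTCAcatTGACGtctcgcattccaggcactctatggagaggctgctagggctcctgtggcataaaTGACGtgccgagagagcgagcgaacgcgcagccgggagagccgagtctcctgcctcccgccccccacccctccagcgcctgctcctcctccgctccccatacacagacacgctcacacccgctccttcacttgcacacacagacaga
Klf2 (chr8:72318812-72319061, plus strand): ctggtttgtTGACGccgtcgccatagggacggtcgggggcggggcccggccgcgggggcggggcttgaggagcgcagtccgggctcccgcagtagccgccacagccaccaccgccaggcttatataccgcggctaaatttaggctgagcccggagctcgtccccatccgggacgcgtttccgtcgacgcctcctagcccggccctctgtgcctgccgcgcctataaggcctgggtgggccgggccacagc
Gadd45b (chr10:80929841-80930090, plus strand): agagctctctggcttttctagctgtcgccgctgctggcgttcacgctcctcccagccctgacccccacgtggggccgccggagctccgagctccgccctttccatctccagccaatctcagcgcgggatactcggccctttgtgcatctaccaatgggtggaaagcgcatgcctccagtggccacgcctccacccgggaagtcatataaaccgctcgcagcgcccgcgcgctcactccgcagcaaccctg
Each NR4A gene held 4 cores, Fos 2 and Klf2 1, and none of the 4 motifs was found in the window of Gadd45b.

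Of the Fos subunits of AP-1, the dimeric factor that these proteins form with Jun subunits, 3 of 4 were tested and their differences lay between -0.0041 and 0.15. Fos read 57915, 57177, 68383 and 45088 intensity units on geriatric arrays 1 to 4, against 51749, 64971 and 49040.1 on young arrays 1 to 3. The groups overlapped throughout, and the 95% interval of the log2 difference was -0.41 to 0.59. Fos had 8 to 10 usable spots on an array, and these spots of an array differed by an SD of 0.0482 to 0.0817 log2 units, below the spread between samples (SD 0.18 in geriatric and 0.25 in young cells, n = 3 each). Fosb, its close paralogue, had 284309, 291036, 320478 and 243936 units in geriatric cells, against 277374, 296903 and 226065 in young cells. Its young array 3 was the lowest of all 7, and the interval was -0.33 to 0.62. Fosl2 (also called Fra-2) gave 14761, 14413, 14406 and 16427 units on geriatric arrays, against 18889.8, 16034 and 12881 on young arrays. A dimmer probe of Fosl2 gave a difference of 0.13, where the brighter one gave -0.0041. Fosl1 (Fra-1) was well above background on 0 of 7 arrays, at 11 to 28 units in geriatric cells and 5 to 26 in young cells, and was not tested.

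The 3 Jun subunits had small positive differences, of 0.10 to 0.25, and all overlapped between ages. Jun, which can pair with itself as well as with Fos proteins, measured 104448, 102687, 104252 and 94578 units in geriatric cells, against 93632, 102998 and 95887 in young cells. All 7 arrays lay close together, the SD was 0.05 in geriatric and 0.10 in young samples (log2, n = 3 each), and the interval of the difference was -0.27 to 0.47. Junb read 100615, 98073, 101990.0 and 84430.1 units in geriatric cells, against 92169, 94765 and 65695 in young cells. Here young array 3 was low, and the log2 difference of 0.25 (interval -0.31 to 0.80) was 0.04 without it. Jund, the member of the family that resting cells also express, had 118602, 110358, 97307 and 94747 units in geriatric cells, against 102487, 96216 and 84588 in young cells (interval -0.30 to 0.64).

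The EGR zinc finger factors, which bind GC-rich sites of growth and differentiation genes, did not separate the ages. Egr1 gave 114244, 125638, 137476 and 74655 units on geriatric arrays, against 95672, 129470.0 and 84981 on young arrays, with an interval of -0.54 to 0.80. Geriatric array 4 was the lowest of the 7 in these units. Egr2 (Krox20) had 9735, 8368, 9975 and 5177 units in geriatric cells, against 8787, 10338 and 5366 in young cells. Geriatric array 4 and young array 3 were low together, and the log2 difference was 0.03. Egr3 measured 7432, 6629, 5035 and 5466 units in geriatric cells, against 10422, 4830.1 and 4310.5 in young cells, so that young array 1 stood above all others and the means of both groups were 1.96 log2 units. Egr4 was near background, at 9, 8, 10.5 and 45 units in geriatric cells, against 6, 57 and 79 in young cells. It was well above background on 1 of 4 geriatric and 2 of 3 young arrays (probe at chromosome 6, 85461153 to 85461212 on mm9). Its difference of -0.86 (SE 1.17, limma adjusted p = 0.919) was -0.20 without young array 3 and -2.0 without young array 1.

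All 3 NR4A genes, orphan nuclear receptors that are induced by cyclic AMP and by calcium, had lower means in geriatric cells, but none passed the test. Nr4a2 (Nurr1; probe at chromosome 2, 56960699 to 56960758 on mm9) read 1649.7, 1523, 2102 and 2108 units on geriatric arrays, against 8234, 5957 and 2139 on young arrays. Young arrays 1 and 2 stood above every geriatric array, and young array 3 lay among the geriatric values once arrays were scaled. Its level was 0.36 ± 0.29 in geriatric and 1.61 ± 1.09 in young cells (log2, SD, n = 3 each), a difference of -1.25 (SE 0.56, interval -2.62 to 0.13, limma adjusted p = 0.713). Without young array 1 it was -0.80. The dimmer probe of Nr4a2 gave -0.59, with 132, 143, 253 and 180.2 units in geriatric cells, against 452, 508 and 104 in young cells. Nr4a3 (Nor1) had 549, 409.6, 649.7 and 345 units in geriatric cells, against 1518, 1254 and 350.0 in young cells. Young arrays 1 and 2 were again the highest, and young array 3 was the lowest after scaling. Its difference of -0.83 (interval -2.36 to 0.71) was -1.53 without young array 3 and -0.39 without young array 1. The 9 or 10 spots of Nr4a3 on an array differed by an SD of at most 0.0775 log2 units, against 1.23 between young samples and 0.33 between geriatric samples. Nr4a1 (Nur77) gave 23794, 22076, 21093 and 15629.9 units in geriatric cells, against 28219, 25255 and 18693 in young cells, with overlapping groups and a difference of -0.22 (interval -0.83 to 0.40).

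Among the Krüppel-like factors, zinc finger proteins that bind GC and CACCC boxes, Klf2 had the largest difference of all 34 genes. Klf2, known for its part in lymphocyte and endothelial quiescence (probe at chromosome 8, 74845137 to 74845196 on mm9), read 11877, 10398, 24669.6 and 18268 units on geriatric arrays, against 7067, 10798 and 4779.9 on young arrays. After scaling, the geriatric samples were at 2.88, 3.94 and 3.75 and the young samples at 2.27, 2.81 and 1.55 log2 units, with no overlap. The log2 difference was 1.31 (SE 0.43, interval 0.26 to 2.37), 2.49-fold, with an unadjusted p of 0.0229 and a limma adjusted p of 0.581. Over the alternatives the adjusted p was 0.368 to 0.849. Between arrays with position row 1 in their descriptions, which holds the 3 young arrays and geriatric array 1, the difference was 0.69. The other geriatric arrays had row 2, which holds no young array. For those arrays age and position row cannot be told apart.

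The other 3 Krüppel-like factors overlapped between ages. Klf4, one of the factors used to reprogram cells to pluripotency, had 13599, 12786, 18025 and 8359 units in geriatric cells, against 8271, 17348 and 8033 in young cells. Klf6 read 19315, 17212, 34708 and 22764 units in geriatric cells, against 12154, 27971 and 16674 in young cells. Both were high on young array 2 and geriatric array 3, with differences of 0.32 (interval -0.66 to 1.29) and 0.50 (interval -0.41 to 1.42). Leaving out 1 sample gave 0.08 (without young array 3) to 0.68 (without young array 2) for Klf4, and 0.27 (without young array 1) to 0.83 (without young array 2) for Klf6. Within position row 1 the difference of Klf6 was 0.07. Klf10, which TGF-beta induces, gave 3097, 2727, 5935 and 4324 units in geriatric cells, against 3764, 3933 and 4413 in young cells. Its young samples were close together (SD 0.04, n = 3) and the geriatric samples lay on both sides of them (SD 0.50, n = 3).

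The 3 genes that carry the name immediate early response had differences of -0.57 to 1.04. Ier3, a regulator of cell survival (probe at chromosome 17, 35959528 to 35959587 on mm9), read 3127, 2828, 4591 and 4069 units on geriatric arrays, against 1648, 3336 and 1313 on young arrays. After scaling, 2 of 3 geriatric samples were above every young sample, and the third, at 0.97, was below young array 2, at 1.11. The log2 difference was 1.04 (SE 0.41, interval 0.03 to 2.04, unadjusted p = 0.0447, limma adjusted p = 0.674), and 0.65 within position row 1. Ier2 gave 27294, 24449, 25181 and 27209 units in geriatric cells, against 32765, 26258 and 21969 in young cells, with a log2 difference of 0.02 (interval -0.57 to 0.62). Ier5 was dim, at 173, 164, 52 and 13 units in geriatric cells, against 307, 18 and 76 in young cells. It was well above background on 3 of 4 geriatric and 2 of 3 young arrays, and its interval of -3.78 to 2.64 leaves the direction undetermined. A dimmer probe of Ier5, well above background on 1 of 7 arrays, gave a difference of 0.32 where the brighter one gave -0.57.

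The 5 other inducible transcription factors had differences of -0.79 to 0.59. Atf3, a stress-induced repressor of the ATF family, had 45557, 45732, 61914 and 31887 units in geriatric cells, against 45117, 56466 and 22128 in young cells. Young array 3 was the lowest, and the difference of 0.28 was -0.16 without it. Myc, the growth regulator, ran the other way on that array. It read 5939, 5229, 4793 and 8315 units in geriatric cells, against 14071, 3982 and 23106 in young cells. Young array 2 was the lowest of all and young array 3 the highest, and the 2 spots of the probe agreed within an SD of 0.0289 to 0.0986 log2 units on every array. The difference of -0.79 (interval -2.47 to 0.88) was -1.52 without young array 2 and -0.29 without young array 3. Maff, a small Maf protein, gave 2266, 1980.2, 1783 and 1187 units in geriatric cells, against 1654, 1667 and 946 in young cells. Nfil3, a bZIP repressor, read 9015, 8671, 9876 and 4664 units in geriatric cells, against 12309, 9539 and 4937 in young cells. Csrnp1, a nuclear protein that AXIN1 induces in human cells, had 3056, 2693, 2323 and 1013 units in geriatric cells, against 1473, 2618 and 577 in young cells. In all 3 the lowest samples after scaling were young array 3 and geriatric array 4. The difference of Csrnp1, 0.59, was -0.04 without young array 3, 1.09 without young array 2 and 1.18 within position row 1.

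Genes that end the response, by dephosphorylating kinases or by destroying AU-rich mRNA, differed by at most 0.23 log2 units. Dusp1, the phosphatase that inactivates p38 and JNK, measured 52866, 49105, 80054 and 50835 units in geriatric cells, against 44771, 67492 and 48002 in young cells (interval -0.39 to 0.84). Zfp36 (tristetraprolin), which binds AU-rich elements of cytokine mRNA, gave 24815, 24167, 26465 and 19190.4 units in geriatric cells, against 20746, 29798 and 20027 in young cells. Its paralogue Zfp36l1 read 25729.8, 25581, 32509 and 23335 units in geriatric cells, against 23142, 31291 and 23679 in young cells. Geriatric array 3 and young array 2 were the high arrays of both genes. Zfp36l2 had 25662, 24342, 30475 and 19367 units in geriatric cells, against 21020.4, 36155 and 24058 in young cells. The antiproliferative gene Btg1 had 22959.6, 21774, 29429.9 and 17878 units in geriatric cells, against 15484, 29019 and 18291 in young cells. Again young array 2 and geriatric array 3 were high, and the second probe of Btg1 gave a difference of -0.01 where the brighter one gave 0.23.

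Of the stress genes and effectors, Gadd45b did not overlap between the groups. Gadd45b is a regulator of p38 and JNK signalling and a participant in DNA demethylation (probe at chromosome 10, 80394367 to 80394426 on mm9). It read 14235, 13175, 10655 and 7248 units on geriatric arrays, against 5893, 8211 and 3971 on young arrays. The scaled geriatric samples were at 3.18, 2.73 and 2.42 and the young samples at 2.01, 2.41 and 1.28 log2 units, so that the closest pair lay almost together. The difference was 0.87 (SE 0.36, interval -0.01 to 1.76, limma adjusted p = 0.688), 1.83-fold, and 0.56 without young array 3. Ppp1r15a (GADD34), which lets translation resume after stress, gave 7476, 6774, 7857 and 5790.4 units in geriatric cells, against 5637, 9126 and 6201 in young cells (interval -0.50 to 0.62). Rhob had 23704, 21852, 32293 and 31561 units in geriatric cells, against 27867, 25775 and 20368 in young cells. Its dimmer probe gave 0.11 where this one gave 0.28. Arc, best known as a synaptic protein of neurons, read 326, 347, 476 and 115 units in geriatric cells, against 457, 792 and 152 in young cells, with geriatric array 4 and young array 3 the lowest (interval -2.36 to 1.42).

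**Figure D2:**
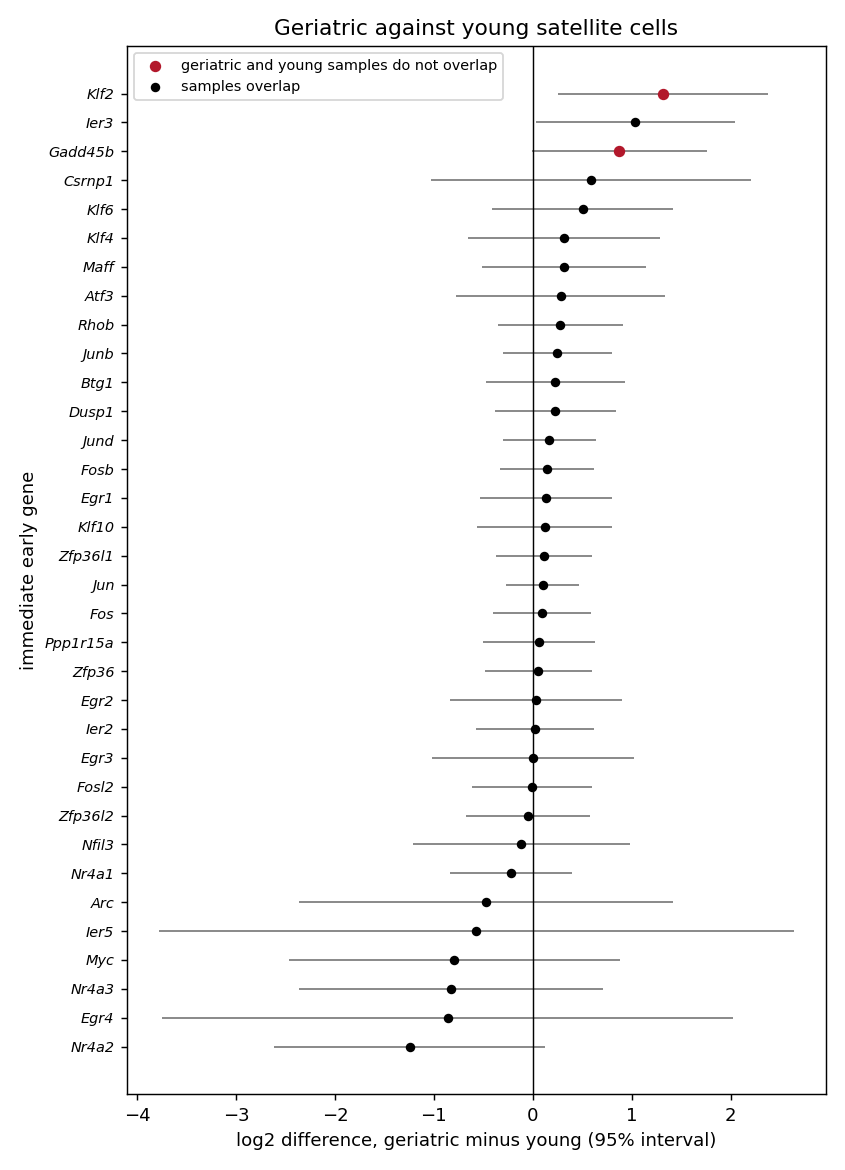
Log2 difference, geriatric minus young, of the 34 tested immediate early genes with 95% intervals (3 samples per group), in red where the geriatric and young samples do not overlap. Differences run from -1.25 for Nr4a2 to 1.31 for Klf2, and the intervals of Klf2 and Ier3 exclude 0 before adjustment.

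Across these genes young array 3, the sample aged 3 months, was most often the lowest. It was the lowest of the 6 samples for 25 of 34 genes (73.5%), against 18.8% of all features. The median deviation of a gene from its own mean was 0.03, 0.13, 0.19 and -0.05 log2 units on geriatric arrays 1 to 4, and 0.02, 0.24 and -0.40 on young arrays 1 to 3. Over all features young array 3 deviated by a median of -0.02, and it had the most probes well above background of the 7 arrays, 41289. Above their own mean on that array were 3 genes, Egr4, Ier5 and Myc, of which Egr4 and Ier5 were dim and Myc was 1.40 log2 units above its mean. Age in months moves with this array, since the other young samples were aged 2 months, and its part in the result was not tested.

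**Figure D3:**
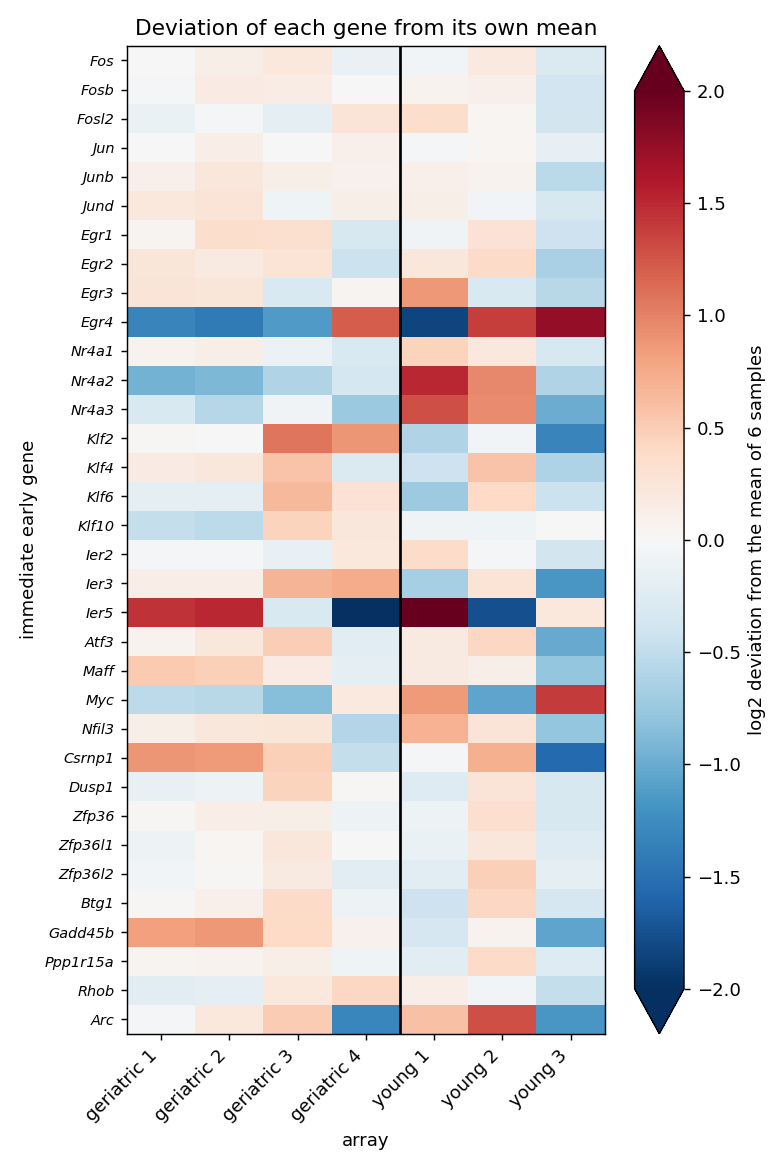
Deviation of each tested immediate early gene from its mean over the 6 samples (log2, colour clipped at 2 units either way), with geriatric arrays left of the black line and young arrays right of it. Young array 3 is below the mean for 31 of 34 genes, and geriatric arrays 1 and 2, which share a sample name, look alike.

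Most of these genes also varied more between samples of one age than other features of similar level. The within-group SD of each gene was ranked among the 1000 tested features nearest to it in mean level, and the median rank was the 93rd percentile, with 21 of 34 genes over the 90th. Myc ranked highest, at the 99.9th percentile, followed by Atf3 at 99.4 and Klf6 at 99.1. Jun was the exception, at the 9.2nd percentile, and the only gene under the 50th. Without young array 3 the median rank was 80.65 and 13 genes were over the 90th percentile. The SD was smaller in geriatric than in young samples for 32 of 34 genes. Over all features it was larger in young samples for 46.0%. Without young array 3 it was larger in young samples for 16 of 34, against 38.6% of all features.

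**Figure D4:**
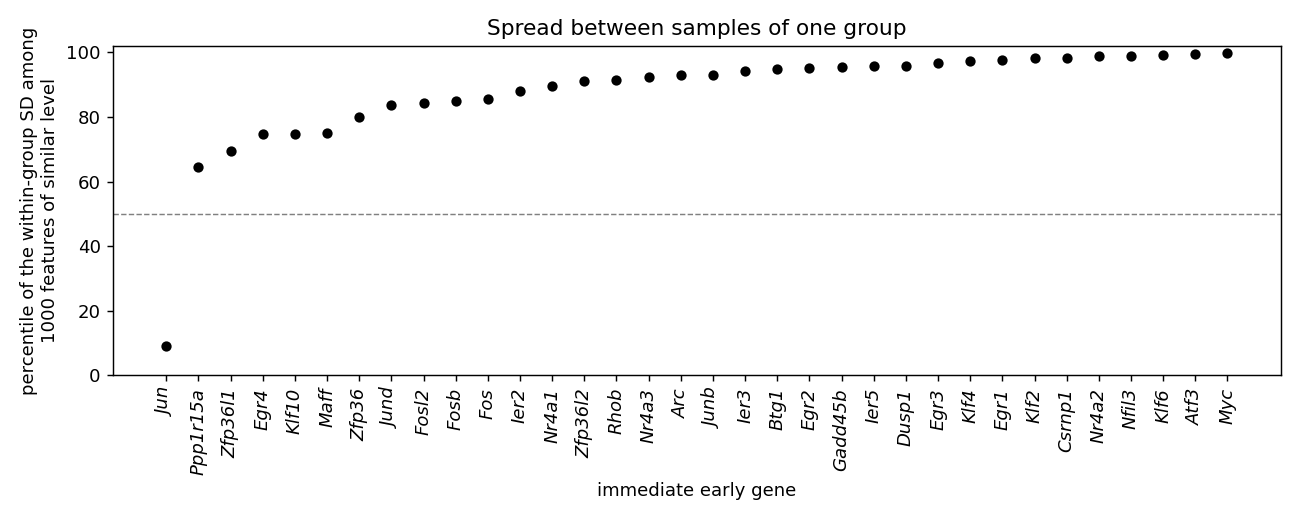
Percentile of the within-group SD of each tested immediate early gene among the 1000 features nearest in mean level, in rising order, with a dashed line at the 50th percentile. Jun is at 9.2, and the other 33 genes are above the line, up to 99.9 for Myc.

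Genes that transmit the inducing signals, and genes known to follow the immediate early ones, were read in the same fit, and none passed an adjusted p of 0.05 with limma. Of 28 genes of the ERK arm and of SRF and CREB transcription factors, 12 were higher and 16 lower in geriatric cells, with a median difference of -0.11. Against 7.25% of all features, 1 of them (3.57%) had an unadjusted p under 0.05. That was Crem, a CREB relative that also encodes a repressor of cyclic AMP responses, at 0.03 ± 0.20 in geriatric and 0.48 ± 0.10 in young cells (log2, SD, n = 3 each; limma adjusted p = 0.683). Of 22 genes of the JNK and p38 arm, 11 were higher and 11 lower, with a median of -0.02 and 2 unadjusted p under 0.05 (9.09%). Mapk12, the gamma form of p38, differed by 1.21 (limma adjusted p = 0.655), and Mef2c was not well above background on any young array. Of 21 tested bZIP partners of AP-1, 11 were higher and 10 lower, with a median of 0.02 and 1 unadjusted p under 0.05 (4.76%). That was Batf2, which differed by 1.65, at -3.26 in geriatric and -4.91 in young cells (log2). It was dim, and well above background on 2 of 3 young arrays. Jdp2, a repressor that pairs with Jun, differed by -0.65, at -3.42 in geriatric and -2.77 in young cells.

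Of 34 delayed early and feedback genes, 25 were higher and 9 lower, with a median difference of 0.17. Of these, 2 (5.88%) had an unadjusted p under 0.05 and 2 (5.88%) did not overlap, against 7.25% and 12.8% of all features. Klf5, a Krüppel-like factor outside the 35, was at -2.35, -0.83 and -1.56 log2 units in geriatric samples, against -3.92, -4.01 and -4.09 in young samples, with no overlap (difference 2.43, limma adjusted p = 0.242). Socs1, an inhibitor of cytokine receptor signalling, differed by 1.06 and Dusp6, the ERK phosphatase, by -0.70. Of 80 tested further genes known to respond to dissociation, 57 were higher and 23 lower, with a median of 0.13. In that list 4 (5%) had an unadjusted p under 0.05 and 6 (7.5%) did not overlap, also below the 7.25% and 12.8% of all features. Mt1, a metallothionein, was at 5.17 ± 0.23 in geriatric and 4.33 ± 0.38 in young cells, and Irf1, an interferon regulatory factor, at 3.66 ± 0.13 in geriatric and 2.62 ± 0.63 in young cells (log2, SD, n = 3 each; limma adjusted p = 0.554 and 0.578). Some genes are in both the dissociation list and the delayed early list, so the lists are not independent. On young array 3 the median deviation was -0.35 for the dissociation list and -0.29 for the delayed early list. Without that array the list medians were 0.0013 and 0.015.

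Markers of the sorted cells and of other cell types were read beside these values. All 17 satellite cell markers were tested, with 11 higher and 6 lower and a median difference of 0.09. Of them 0 had an unadjusted p under 0.05, and 2 (11.8%) did not overlap, against 12.8% of all features. The 2 were Itga7, which encodes the sorted integrin α7, and Sdc3. Itga7 was at 1.56 in geriatric and 2.00 in young cells, and Sdc3 at 1.38 in geriatric and 1.01 in young cells (log2). Cd34, also sorted for, was at 3.36 in geriatric and 3.27 in young cells. Pax7, the defining factor, was at 4.11 ± 0.22 in geriatric and 4.07 ± 0.37 in young cells (log2, SD, n = 3 each). Of 12 fibro-adipogenic markers 11 were tested, 9 higher and 2 lower, with a median of 0.74, which was 0.43 without geriatric array 4 and 0.31 within position row 1. Of these, 4 (36.4%) had an unadjusted p under 0.05 and 3 (27.3%) did not overlap, against 7.25% and 12.8% of all features. The summed signal of the 11 markers in units of the array's 75th percentile was 59.5 to 70.7 on geriatric and 45.8 to 62.1 on young arrays. Col3a1 gave the largest part of that sum, at 4.73 in geriatric and 4.87 in young cells (log2). Dcn was at 3.72 in geriatric and 2.17 in young cells, so the sum does not show a rise of the whole list. Pdgfra, which defines fibro-adipogenic cells, was not well above background on enough arrays to be tested. Ly6a, which encodes Sca1, selected against in the sort, was at -4.07 in geriatric and -5.29 in young cells (log2). It was dim, and well above background on 2 of 4 geriatric and 2 of 3 young arrays. Of 11 endothelial markers 9 were tested, 5 higher and 4 lower (sums 8.45 to 12.3 on geriatric and 7.75 to 9.72 on young arrays). That sum rests on Tek, at 3.1 in geriatric and 2.93 in young cells (log2), and Pecam1, whose product CD31 the sort selected against, was at -4.44 in geriatric and -4.20 in young cells. Of 12 macrophage markers 7 were tested, 4 higher and 3 lower (87.5 to 112.8 on geriatric and 90.4 to 100.4 on young arrays). Here the sum rests on Itgam, which encodes CD11b, also selected against, at 6.58 in geriatric and 6.52 in young cells, while Ptprc (CD45) was at -2.60 in geriatric and -2.98 in young cells. Itgam was read by its brightest probe, and whether that probe reads this transcript alone was not tested. The list median was 0.06, and 0.38 when the probes of a gene were averaged. Lymphocyte markers numbered 7 tested of 11, 3 higher and 4 lower. Of these 7, 1 (14.3%) had an unadjusted p under 0.05 and 2 (28.6%) did not overlap, both higher in geriatric cells. The first was Cd79a, at -1.87 in geriatric and -3.14 in young cells (log2, limma adjusted p = 0.277). Granulocyte markers numbered 3 of 8, all lower, and pericyte markers 9 of 9, 6 higher and 3 lower. Myofibre markers numbered 11 of 11, 7 higher and 4 lower. No marker passed the test, and the part of these cells in the immediate early signals was not tested.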

How the data were processed

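RNA of sorted satellite cells was amplified and hybridised with Cy3 on 7 one-colour arrays. The deposited intensity values were processed signals; per the file headers they came from Feature Extraction 10.7.3.1 of Agilent, with probe positions on mm9. The authors' deposited log2 value table was used as an alternative. Control and outlier spots were left out, spots of a probe were averaged, and log2 signals were scaled to each array's 75th percentile. Probes well above background on at least 3 of 7 arrays were kept (41257), and the brightest probe read each of 27392 features. Geriatric arrays 1 and 2 correlated at 0.988, against 0.942 to 0.967 for other pairs, and were averaged. limma 3.58.1 (R 4.3.3) compared 3 with 3 samples, with Benjamini-Hochberg adjustment over all features, and the fit was tested on simulated data. Well above background were 38044 to 40998 probes on geriatric and 40255 to 41289 on young arrays; the number of arrays limits the precision. Replicate numbers did not pair samples (correlations of same-numbered deviations -0.05, 0.07 and 0.0049).

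All 35 genes are named, with full statistics for those whose groups did not overlap and for the 5 largest differences. Of other lists, the 2 smallest p in each direction may be named, and Pax7 and Pdgfra were added as defining markers. Markers that weigh in a summed signal or encode a sorting antigen were named as well. The genes and lists were chosen with earlier results of these data known. Background correction, scaling, filter, probe summary, blocks and left-out arrays were varied.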

Additional observations from a re-analysis of the deposited data

How the results depend on the processing

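Under 19 alternative settings 0 immediate early genes passed the threshold, of 34 tested, or of 32 when all 7 arrays had to be above background. The sign was kept by 15 of 34 in every setting that gave them a value (18 for Egr4, 19 for the others). Their median difference ran from -0.04 without young replicate 3 to 0.23 without young replicate 2. Within position row 1, 21 were higher and 13 lower in geriatric cells, and 8 had the other sign than in the main setting. Of all features 7 passed. The number was 4 with normexp and with the authors' table, 2 when all 7 arrays had to be above background, 3 within position row 1, where geriatric array 1 is alone and is assumed to vary like the young arrays, and 64 when the 7 arrays counted as 7 samples. Leaving out 1 replicate or sample gave 0 to 8 (0 each when young replicate 1, young replicate 2 or replicate 4 of the geriatric group was left out, with 1623, 2152 and 2113 unadjusted p under 0.05). With the replicate block, although the numbers do not pair samples, it was 0 (3561 unadjusted p under 0.05), and with position row as a block 0 (1635). The causes were not tested. Dim genes such as Egr4 and Ier5 are limited by signal over background.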
